A study of Mus musculus with 12 samples.

Results

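The visinin-like neuronal calcium sensors described here are the 6 genes *Vsnl1*, *Hpca*, *Hpcal1*, *Hpcal4*, *Ncald* and *Ncs1*, chosen by symbol out of the 39017 genes counted by RNA sequencing of mouse adrenals. All 6 were found in the table and all 6 passed the filter on low counts. The study asked which transcripts change when β-catenin, the effector of canonical Wnt signaling, is stabilized in cells of the zona glomerulosa (zG), the outer layer of the adrenal cortex. The 6 controls (Ctrl, labelled Wt_Ctr) had the genotype ASCre/+ and the 6 βCat-GOF mice were bigenic ASCre/+ ::Ctnnb1fl(ex3)/+. All 12 were females of 10 to 11 weeks on a mixed sv129-C57Bl/6 background, and all carried AS Cre, which is expressed from the *Cyp11b2* (aldosterone synthase) locus and is therefore active in zG cells. Cre removes exon 3 from 1 *Ctnnb1* allele of βCat-GOF zG cells and their descendants, whereas RNA was taken from the entire adrenal, which mixes the zG with the zona fasciculata (zF), the medulla, the capsule and vessels.

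Neuronal calcium sensors are small EF-hand proteins that bind calcium and, in most members, expose an N-terminal myristoyl group on doing so, which moves the protein from the cytosol to membranes. They are best known from neurons and the retina. In zG cells calcium entry drives aldosterone synthesis, and VSNL1 has been described as enriched in the human zG and in aldosterone-producing adenomas, where it raises *CYP11B2* expression.

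*Vsnl1* and *Ncald* rose in βCat-GOF adrenals by a factor of about 2.01 and 2.74, and the other 4 members did not pass the test. A gene was called when its fold change exceeded 1.4, its adjusted p was below 0.05 and its base mean (the mean normalized count over all mice) exceeded 100. Of the 6 members 2 were called higher and 0 lower, where 1.48% of the 14953 genes tested were called higher and 0.869% lower (2.35% in either direction). At an unadjusted p under 0.05 *Ncs1* was 1 member with a lower value. DESeq2 also called 2 members higher and 0 lower, and of the 16901 genes it tested 361 higher and 280 lower. Over all genes tested the log2 fold changes had a median of 0.00011, and the median size of a change, whatever its sign, was 0.16. *Hpca* had a base mean of 75.8, below the cut-off, so a fall could not have been called at any size.

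Among the members searched, *Vsnl1* alone had a match to a TCF/LEF motif, the sequence through which β-catenin's DNA-binding partners are known to act, in the 250 bases before a RefSeq start. The letters searched, on both strands, were CTTTGAA or CTTTGAT and the variants CTTTGTA or CTTTGTT. RefSeq windows (GRCm38.p6, the build of the files) were found for 5 of the 6 members, all but *Ncald*, and 1 of their 8 windows held a match. Over all genes 14.8% of 32851 such windows hold one, so the match is a description and not evidence of a site. It lies before the downstream *Vsnl1* start, at chr12:11435652-11435901 on the minus strand, inside the gene and outside its annotated exons. The window is printed 5′ to 3′ because it is the only member window with these letters, which are in capitals and begin 62 bases before the start.
Vsnl1: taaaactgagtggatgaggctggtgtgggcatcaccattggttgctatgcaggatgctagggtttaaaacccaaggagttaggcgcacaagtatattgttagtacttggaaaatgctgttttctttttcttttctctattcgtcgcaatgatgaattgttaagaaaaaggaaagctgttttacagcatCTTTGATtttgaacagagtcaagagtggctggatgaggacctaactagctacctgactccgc

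Libraries held between 13484675 and 25625494 counts on genes, so that 3 counts, taken as the floor, correspond to 2.29 to 4.745 normalized counts. The member with the fewest reads, *Hpca*, had 30 to 162 raw counts per mouse. *Ctnnb1* had 20273 to 22606 normalized counts in Ctrl and 19229 to 22433 in βCat-GOF mice, and a count over the whole gene cannot show that 1 exon is missing. The zG markers Cyp11b2, Dab2, Hsd3b6, Agtr1a, Agtr1b, Kcnk3, Kcnk9 and Wnt4 were all above the filter. There were 3 pairs of mice with a common stem in their labels (1367-1 and 1367-1-2, 1367-5 and 1367-5-2, 1369-2 and 1369-2ear). The chi-square statistic between the libraries of a pair was 41.9 to 45.9 per degree of freedom, far above sampling noise. Pairs of the same group without a common stem had 16.79 to 145.2, so this statistic cannot show whether a pair comes from 1 animal. All Ctrl labels begin with 1367, whereas 5 of the 6 βCat-GOF labels begin with 1369, so that genotype and any family or batch behind these numbers cannot be told apart. The labels do not say whether a shared stem marks 1 animal sampled more than once. The 12 samples were counted as separate mice because the study's design gives 6 mice per group, and the counts of each pair were also summed as an alternative. Nothing in the labels says more about the origin of each sample, and the p-values measure the spread between these samples.

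*Vsnl1* encodes VILIP-1, the founding visinin-like protein. It lies on chr12:11325242-11436613 (GRCm38, minus strand, ENSMUSG00000054459). The 6 Ctrl adrenals had 884 to 1430 normalized counts of *Vsnl1* (median 1228), and the 6 βCat-GOF adrenals had 1656 to 3446 (median 2205). Every βCat-GOF mouse lay above every Ctrl mouse, which was so for 1.61% of all genes tested. The group means were 1208 ± 209 and 2425 ± 785 (SD, n = 6 mice each), and the spread relative to the mean was 17.3% in Ctrl and 32.4% in βCat-GOF adrenals. The log2 fold change was 1.00 (standard error 0.20, edgeR quasi-likelihood test, adjusted p = 0.0128). In bulk RNA more zG cells and more *Vsnl1* RNA per zG cell cannot be told apart, and the same holds for fewer cells and less RNA per cell in every fall given here. With the counts of stem-sharing mice summed, the log2 fold change was 0.86 and the call was lost (edgeR, adjusted p = 0.0538), and tested against a fold of 1.4 itself it was also lost (edgeR glmTreat, adjusted p = 0.18).

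The βCat-GOF mice were not alike in *Vsnl1*. Mice 1369-2ear and 1369-2, whose labels share a stem, had 3446 and 3256 normalized counts, and 1387-8 had 2555. The other 3 lay between 1656 and 1854, still above the highest Ctrl mouse. Without 1369-2ear and 1369-2 the log2 fold change of *Vsnl1* was 0.69 (standard error 0.15, edgeR, adjusted p = 0.0162), an alternative added after the data were seen.

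Some other zG markers rose as well. Of the 8 in the list 7 had a higher fitted value in βCat-GOF adrenals, where 50% of all genes tested had one. Called were 3, *Dab2*, *Agtr1a* and *Agtr1b*, with log2 fold changes of 0.75, 0.89 and 1.55, where 1.48% of all genes tested were called higher. DESeq2 called 5 of the list higher, and 361 of the 16901 genes it tested. Their summed level, most of it from *Kcnk3* and *Dab2*, was 56860 to 71590 normalized counts in Ctrl and 72576 to 91384 in βCat-GOF adrenals. Their mean on the log2 CPM scale overlapped between the groups, at 7.09 to 7.75 and 7.10 to 8.27. The log2 fold change of *Cyp11b2* itself was -0.18 (edgeR, adjusted p = 0.82). *Vsnl1* rose more than the mean of the 8, by 0.46 on the log2 scale (exact permutation test over the 924 splits of the mice, two-sided, p = 0.0065), its log2 ratio to them being -1.48 ± 0.14 in Ctrl and -1.02 ± 0.29 in βCat-GOF mice (SD, n = 6 mice per group). With any 1 marker left out the difference was 0.32 to 0.61, and with stem-sharing mice summed it was 0.40 and no longer passed (exact permutation test, p = 0.0556). Single markers ranged from -0.18 (*Cyp11b2*) to 1.55 (*Agtr1b*) in log2 fold change, so the 1.00 of *Vsnl1* lay within their range. The permutation test takes the list as fixed and does not measure the spread between markers.

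Within each genotype *Vsnl1* was higher in the mice with a higher zG score, the mean of the 8 markers on the log2 CPM scale (counts scaled to TMM-adjusted library totals). Pearson's r was 0.83 in Ctrl (exact permutation p = 0.0431, n = 6) and 0.81 in βCat-GOF mice (exact permutation p = 0.0375, n = 6), and Spearman's rho was 0.94 and 0.89 (exact permutation p = 0.0167 and 0.0333). Without the 2 mice farthest from the median score r was 0.95 and 0.97. The few βCat-GOF mice kept then include 1369-2ear and 1369-2, whose labels share a stem and whose zG scores, 8.23 and 8.27, were the highest. The relation was not recomputed with stem-sharing mice summed. In neither genotype did it pass the Benjamini-Hochberg adjustment over the 24 relations of members with scores (adjusted p = 0.172 for both r by exact permutation).

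*Hpcal1* and *Hpcal4* encode VILIP-3 and VILIP-2, both of the visinin-like class. *Hpcal1* shares chromosome 12 with *Vsnl1*, at chr12:17690856-17791933 (plus strand, ENSMUSG00000071379). It had 478 to 588 normalized counts in Ctrl adrenals (median 506) and 392 to 542 in βCat-GOF adrenals (median 455). The groups overlapped, although 4 of the 6 βCat-GOF mice lay below every Ctrl mouse. The log2 fold change was -0.14 (standard error 0.099, edgeR, adjusted p = 0.454).

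*Hpcal4*, on chr4:123183227-123194701 (plus strand, ENSMUSG00000046093), had 210.0 to 335 normalized counts in Ctrl adrenals (median 241) and 188 to 404 in βCat-GOF adrenals (median 347). Here 4 βCat-GOF mice lay above every Ctrl mouse and 1 lay below every one. The log2 fold change was 0.34 (standard error 0.19, edgeR, adjusted p = 0.338). *Hpcal4* was again highest in 1369-2 and 1369-2ear, with 404 and 386 normalized counts, and without these mice its log2 fold change was 0.14 (edgeR, adjusted p = 0.676).

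*Ncald* encodes neurocalcin delta, which binds clathrin and is known as a modifier of spinal muscular atrophy. It lies on chr15:37366175-37792570 (minus strand, ENSMUSG00000051359). It had 451 to 1028 normalized counts in Ctrl adrenals (median 722) and 819 to 3364 in βCat-GOF adrenals (median 2076). In 5 of the 6 βCat-GOF mice it was above every Ctrl mouse, and the sixth, 1369-2ear, lay inside the Ctrl range. The group means were 712 ± 211 and 1971 ± 889 (SD, n = 6 each), and the log2 fold change was 1.45 (standard error 0.29, edgeR, adjusted p = 0.0136). This was the member with the widest spread in βCat-GOF adrenals, 45.1% of the mean.

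The call of *Ncald* was lost with 1 surrogate variable in the model, which left a log2 fold change of 1.02 (edgeR, adjusted p = 0.107), and against a fold of 1.4 (edgeR glmTreat, adjusted p = 0.0933). Exons of Gm28221 (opposite strand) and Gm49397 (same strand) overlap 7.38% of its exon length, and exons on its own strand overlap 3.33%. Reads on these stretches may not be its own. How they were assigned is not known, since the annotation release and strand setting are not given.

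The mice with the most *Vsnl1* were not those with the most *Ncald*. In 1369-2ear and 1369-2, whose labels share a stem and which were highest in *Vsnl1*, *Ncald* had 819 and 1219.7 normalized counts, the lowest of the βCat-GOF group. Across the βCat-GOF mice the relation of the 2 genes did not pass (r = -0.85, exact permutation, adjusted p = 0.417). Mouse 1369-3 had the most *Ncald*, 3364 normalized counts, with 1854 of *Vsnl1*. The other 3 had 2028 to 2269.9 normalized counts of *Ncald*. Without 1369-2ear and 1369-2, the log2 fold change of *Ncald* was 1.77 (standard error 0.22, edgeR, adjusted p = 0.00096), larger than with all mice, whereas that of *Vsnl1* was smaller.

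**Figure D1:**
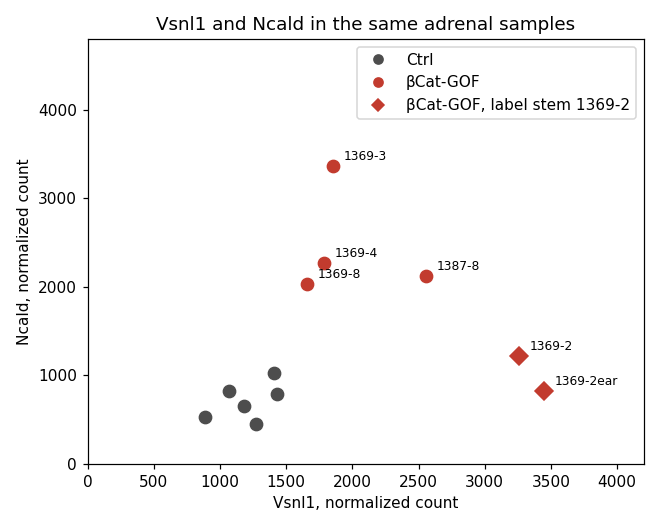
*Vsnl1* (x axis) and *Ncald* (y axis) in normalized counts, 1 point for each of the 12 mice, grey for Ctrl and red for βCat-GOF, with diamonds for the 2 βCat-GOF mice whose labels share the stem 1369-2. The diamonds lie lowest in *Ncald* and highest in *Vsnl1* among βCat-GOF mice, and Ctrl mice reach no more than 1430.4 in *Vsnl1* and 1028 in *Ncald*.

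*Hpca* encodes hippocalcin, a hippocampal sensor whose mutation causes a form of dystonia. It lies on chr4:129111570-129122036 (minus strand, ENSMUSG00000028785). It had 43.1 to 141 normalized counts in Ctrl adrenals (median 80.9) and 34.4 to 85.0 in βCat-GOF adrenals (median 61.0). The groups overlapped, with 2 βCat-GOF mice below every Ctrl mouse, and the log2 fold change was -0.58 (standard error 0.29, edgeR, adjusted p = 0.278).

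Chromaffin cells of the medulla are the other excitable cells of the gland. Among Ctrl mice *Hpca* was higher where the chromaffin score was higher, the mean log2 CPM of 8 marker genes that include Th, Dbh, Pnmt and Chga. In Ctrl mice r was 0.95 (exact permutation p = 0.0167, n = 6), rho was 0.71 (exact permutation p = 0.136), and r without the 2 mice farthest from the median was 0.84. In βCat-GOF mice r was 0.69 (exact permutation p = 0.143, n = 6) and -0.78 without such mice, and neither relation passed the adjustment over 24. *Ncald* also followed this score in Ctrl mice, with r = 0.89 and rho = 0.94, and had r = -0.60 in βCat-GOF mice, none passing the adjustment. The chromaffin score was 8.31 ± 0.57 in Ctrl and 7.98 ± 0.32 in βCat-GOF mice (SD, n = 6 each, exact permutation p = 0.258). Of its 8 markers 1 had a higher fitted value, 2 had an unadjusted p under 0.05, and none was called by edgeR or DESeq2. Over all genes tested 50% had a higher fitted value and edgeR called 2.35%. An unadjusted p under 0.05 was found with a higher value for 9.73% and with a lower value for 10.7% of them. None was at 0, and their summed level was 78952 to 240858 and 99809 to 191932 normalized counts. With this score as a covariate the log2 fold change of *Hpca* was -0.18 (standard error 0.21, edgeR, adjusted p = 0.712). Those of *Vsnl1* and *Ncald* were 1.03 and 1.55, and both stayed past the cut-offs. This fit takes 1 slope on the score for both genotypes, although the r of *Ncald* had opposite signs in them. The part of chromaffin cells in these changes was not tested.

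*Ncs1* encodes frequenin, a sensor outside the visinin-like class that is known to act with phosphatidylinositol 4-kinase β and in exocytosis. It lies on chr2:31245823-31295989 (plus strand, ENSMUSG00000062661). It had 173 to 206 normalized counts in Ctrl adrenals (median 184) and 75.2 to 174 in βCat-GOF adrenals (median 152). In 5 of the 6 βCat-GOF mice it lay below every Ctrl mouse, while complete separation downwards was found for 0 members and 1.16% of all genes tested. The log2 fold change was -0.39 (standard error 0.18, edgeR, unadjusted p = 0.0461, adjusted p = 0.235). An unadjusted p under 0.05 was found with a lower value for 10.7% and with a higher value for 9.73% of all genes tested. Mouse 1369-4 was far below the others at 75.2 normalized counts and also had the lowest zG score of its group, 7.10. Without this mouse the log2 fold change of *Ncs1* was -0.26 (standard error 0.12, edgeR, adjusted p = 0.253).

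**Figure D2:**
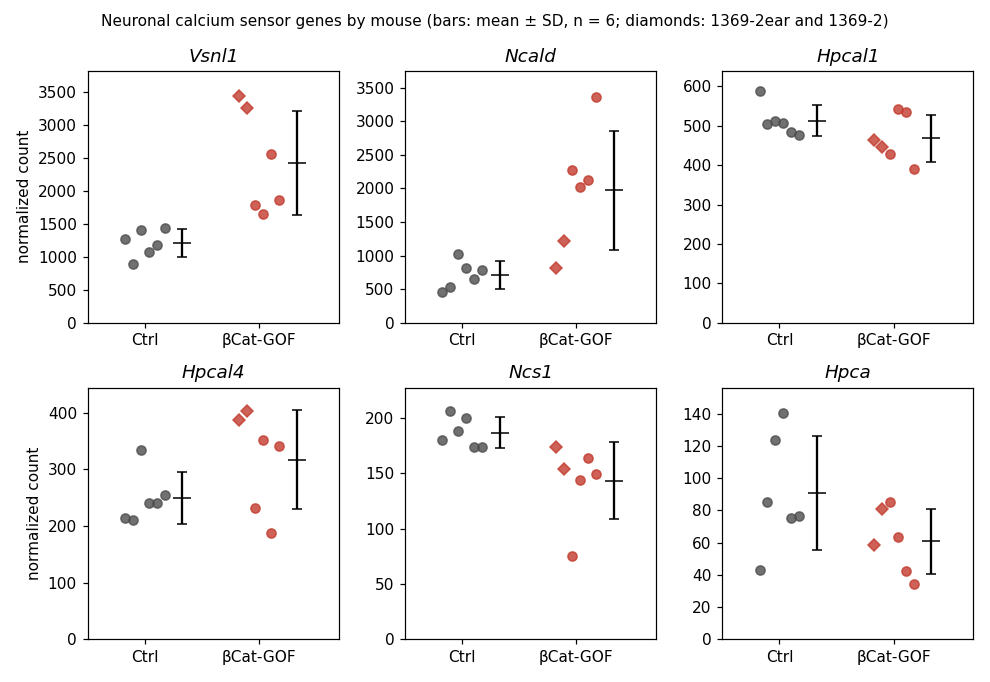
Normalized counts (y axes, from 0) of each member in the 6 Ctrl (grey) and 6 βCat-GOF (red) adrenals, 1 point per mouse, with mean ± SD beside them and diamonds for 1369-2ear and 1369-2. The groups separate fully for *Vsnl1*. For *Ncald* (higher) and *Ncs1* (lower) 5 of 6 βCat-GOF mice lie beyond every Ctrl mouse, and the other 3 members overlap more.

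The rise of *Vsnl1* was larger than the changes of 4 other members measured in the same mice. The log2 ratio of *Vsnl1* to *Hpcal1* was higher in βCat-GOF than in Ctrl adrenals by 1.10 (exact permutation, p = 0.0022, which 6 against 6 mice cannot go below, adjusted p = 0.0054 over the 5 ratios). The difference was 1.38 against *Ncs1* (exact permutation, adjusted p = 0.0054), 1.50 against *Hpca* (exact permutation, adjusted p = 0.0108) and 0.65 against *Hpcal4* (exact permutation, adjusted p = 0.0271). The last was lost without any 1 of the Ctrl mice 1367-1, 1367-5-2 and 1367-5, at 0.61, 0.61 and 0.62 (exact permutation, adjusted p = 0.0541, 0.0541 and 0.0514). It was also lost with stem-sharing mice summed, at 0.59 (exact permutation, adjusted p = 0.129). Against *Ncald* the difference was -0.42 and did not pass (exact permutation, adjusted p = 0.392), with log2 ratios from 0.38 to 1.49 in Ctrl and from -0.86 to 2.07 in βCat-GOF mice.

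**Figure D3:**
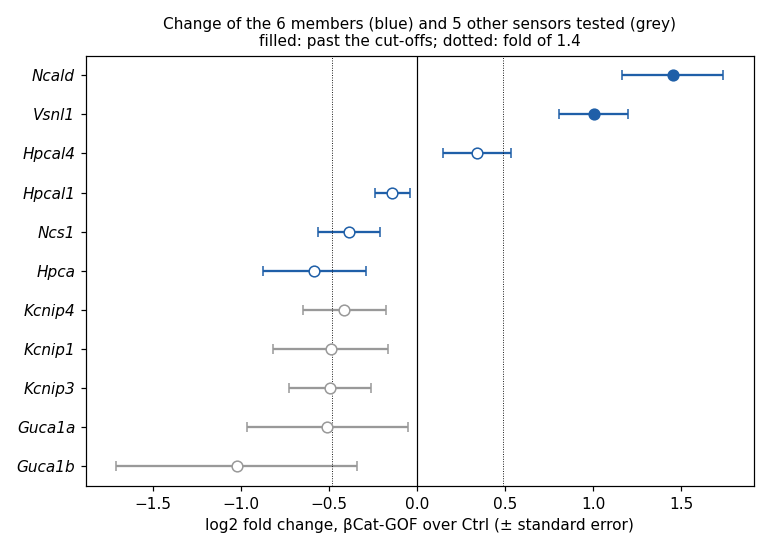
Log2 fold change of βCat-GOF over Ctrl (x axis) with its standard error for the 6 members (blue) and the 5 other neuronal calcium sensors tested (grey), from edgeR. Only *Ncald* at 1.45 and *Vsnl1* at 1.00 are filled, which marks genes past the cut-offs, and all 5 grey genes lie below 0.

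Per kb of exon, *Vsnl1* was the most abundant member in both genotypes. Levels in normalized counts per kb were 618 ± 107 for *Vsnl1*, 302 ± 23.4 for *Hpcal1*, 83.0 ± 24.6 for *Ncald*, 46.7 ± 8.48 for *Hpcal4*, 40.1 ± 2.95 for *Ncs1* and 31.1 ± 12.1 for *Hpca* in Ctrl adrenals (SD, n = 6). In βCat-GOF adrenals the order was the same, at 1239.8 ± 401 for *Vsnl1*, 276 ± 35.2 for *Hpcal1*, 229.7 ± 104 for *Ncald*, 59.4 ± 16.3 for *Hpcal4*, 30.8 ± 7.53 for *Ncs1* and 20.8 ± 6.90 for *Hpca*. *Vsnl1* was above *Hpcal1*, and *Ncald* above *Hpcal4*, in 6 of 6 mice of each genotype.

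Some neighbours did not keep this order in every mouse. *Hpcal1* was above *Ncald* in 6 of 6 Ctrl mice and in 4 of 6 βCat-GOF mice (exact sign-flip permutation p = 0.281 in the latter). *Hpcal4* was above *Ncs1* in 5 of 6 Ctrl mice (exact p = 0.156) and in 6 of 6 βCat-GOF mice. *Ncs1* was above *Hpca* in 4 of 6 and 5 of 6 mice (exact p = 0.125 and 0.156). Where 6 of 6 mice had the same order the exact p was 0.0312, the smallest that 6 mice allow, and over the 10 neighbour pairs its adjusted value was 0.0521, so no pair passed. With the longest transcript in place of all exons as the length, the order of *Ncs1* and *Hpca* turned in both genotypes and that of *Hpcal1* and *Ncald* turned in βCat-GOF adrenals.

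The summed level of the 6 members was 924 to 1287 normalized counts per kb in Ctrl and 1518 to 2261 in βCat-GOF adrenals. *Vsnl1* made up 54.8% ± 4.17 of this sum in Ctrl and 65.4% ± 9.63 in βCat-GOF mice (SD, n = 6 per group). The share of *Ncald* was 7.35% ± 1.69 and 13.3% ± 7.11, and that of *Hpcal1* was 27.3% ± 3.61 and 15.3% ± 3.45. These shares are a description and depend on the lengths used.

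**Figure D4:**
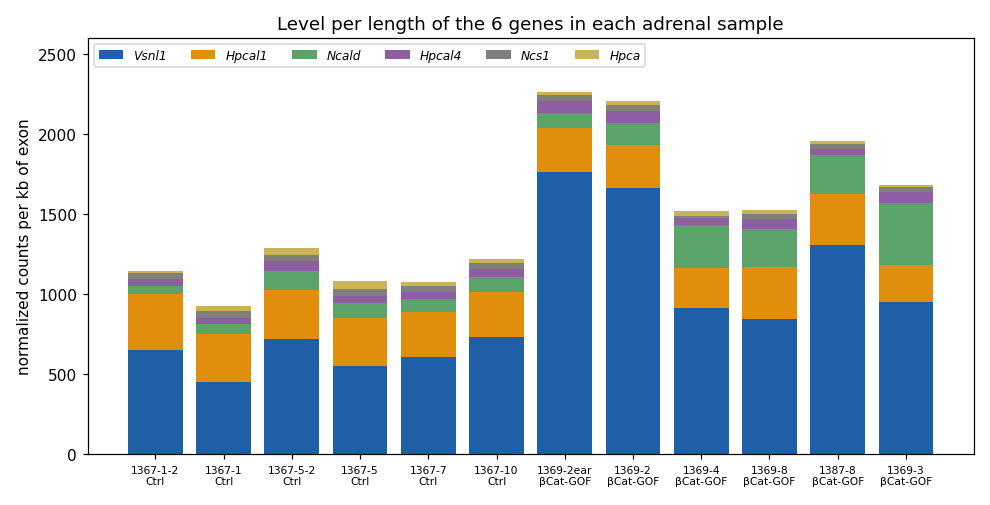
Stacked normalized counts per kb of exon (y axis, from 0) of the 6 members in each of the 12 adrenal samples (x axis, mouse label and genotype). *Vsnl1* is the largest part of each bar, and the βCat-GOF bars reach 1518 to 2261 against 924 to 1287 in Ctrl.

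No other neuronal calcium sensor was called beside *Vsnl1* and *Ncald*. Of 7 such genes in the table, the retinal *Rcvrn* and the potassium channel partner *Kcnip2* were below the filter. The other 5, *Guca1a*, *Guca1b*, *Kcnip1*, *Kcnip3* and *Kcnip4*, all had a lower fitted value in βCat-GOF adrenals (50% of all genes tested had a higher one), with log2 fold changes from -1.03 to -0.41 and a median of -0.49. None was called by edgeR or DESeq2, where edgeR called 2.35% of all genes tested, and 0 had an unadjusted p under 0.05. At that share of calls, 0 among 5 genes does not set them apart from all genes. The base means of *Guca1a*, *Guca1b* and *Kcnip4* were below the cut-off of 100, so these 3 could not have been called at their levels. The adjusted p closest to the cut-off was that of *Kcnip3*, which encodes the DREAM repressor (218 to 156 normalized counts, log2 fold change -0.49, edgeR, adjusted p = 0.25).

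Of 19 other EF-hand proteins tested, 11 had a higher fitted value and 1 was called, where 1.48% of all genes were called higher. This was *Caln1*, encoding calneuron-1, a relative of calmodulin that, like NCS-1, regulates phosphatidylinositol 4-kinase β. It rose from 733 ± 158 to 1518 ± 605 normalized counts (SD, n = 6 each), or by 1.05 on the log2 scale (standard error 0.24, edgeR, adjusted p = 0.0266). The median over the list was 0.02.

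None of the calcium-dependent kinases, calcineurin subunits, partners and targets tested was called, where edgeR called 2.35% of all genes tested in either direction. At that share, 0 calls in lists of 14 do not set them apart. Of 14 calcium-dependent kinases and calcineurin subunits 6 had a higher fitted value, the median log2 fold change was -0.06 and 0 passed the cut-offs with edgeR or DESeq2. There were 4 with an unadjusted p under 0.05, where 9.73% of all genes tested had one with a higher and 10.7% with a lower value. *Ppp3cc*, a catalytic subunit of calcineurin, fell from 361 to 270 normalized counts (log2 fold change -0.43, edgeR, adjusted p = 0.0356), a fold below the cut-off of 1.4. Of 14 partners and targets tested 10 had a higher fitted value, the median was 0.10, and none was called by edgeR or DESeq2, with 3 at an unadjusted p under 0.05 against the same shares of all genes. Among the partners were *Nmt1* and *Nmt2*, the N-myristoyltransferases that attach the lipid, at 0.09 and 0.10. *Pi4kb*, the kinase bound by NCS-1, was at 0.17 (edgeR, adjusted p = 0.204), and *Chrnb2*, a nicotinic receptor subunit, was at -0.57 (edgeR, adjusted p = 0.142).

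The genes whose levels followed each member most closely from mouse to mouse were found by Pearson's r over the 12 mice after subtraction of the genotype mean, among 11430 or 11431 genes with a base mean above 100, and are a description. For *Vsnl1* they were *Plxnc1* at 0.94, *Galnt18* at 0.92, *Ankrd29* and *Itgbl1* at 0.91, and the zG potassium channel *Kcnk9* at 0.90. *Galnt18* was also called, rising from 319 ± 79.7 to 839 ± 288 normalized counts (SD, n = 6 each, edgeR, adjusted p = 0.0041), while *Plxnc1* and *Itgbl1* had log2 fold changes of -0.13 and -0.02.

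*Ncald* had another set, led by *Canx*, *Mthfd2* and *Hsp90b1* at 0.94, 0.93 and 0.92. *Canx* and *Hsp90b1* encode chaperones of the endoplasmic reticulum. For *Hpca* the nearest were *2210408I21Rik*, *Erbb3* and *Susd1* at 0.93, 0.92 and 0.92, of which *Erbb3* encodes a neuregulin receptor known from Schwann cells. *Hpcal1* was nearest to *Haus7* (0.93), *Scx* (0.88) and *Irx3* (0.88), and *Hpcal4* to *Usp35* (0.90), *Caly* (0.88) and *B4galt2* (0.88). *Ncs1* was nearest to *Nek5* (0.92), *Irf2bp2* (0.90) and *Lrba* (0.88).

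Of the other marker lists, *Akr1b7* among 3 zF genes was called higher and *Adgre1* among 4 macrophage genes lower. Over all genes tested edgeR called 1.48% higher and 0.869% lower. An unadjusted p under 0.05 was found with a higher value for 9.73% and with a lower value for 10.7% of them. None of the tested Schwann (2), X-zone (2), capsule and stroma (3), endothelium (4) or adipocyte (3) markers was called by edgeR or DESeq2, with 0, 0, 1, 1 and 1 at an unadjusted p under 0.05. The part of any of these cells in the members' values was not tested.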

How the data were processed

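RNA from whole adrenals of 6 Ctrl and 6 βCat-GOF samples was sequenced, each counted as 1 mouse, although 3 pairs of labels share a stem. Reads were aligned by the authors to mm10 (STAR), and uniquely mapped reads were assigned to genes with featureCounts 1.4.4, giving the raw counts that were deposited. A deposited signal table holds the same counts divided by 1 factor per library, and DESeq2 1.6.3 is named in the submitters' processing notes. The annotation release and strand setting are not given in the sources used here. No column was left unmapped (0 columns), and 966 identifiers have no symbol.

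Counts were tested in R 4.3.3 with the quasi-likelihood F-test of edgeR 4.0.16 after TMM scaling and filterByExpr, at the study's cut-offs, and p-values were adjusted over 14953 genes (Benjamini-Hochberg). Normalized counts are counts over the size factors that DESeq2 estimates as medians of ratios. Log2 CPM used a prior count of 2. Levels per kb used the union of GENCODE M21 exons (GRCm38) and a pseudocount of 0.01 on the log2 scale. Exact permutation tests are two-sided. No other gene with at least 95% identity over 10% of the longest transcript was found for any member (blastn 2.17.0). The floor of 3 counts covers counting error only, whereas the SDs and standard errors include the spread between mice. The scripts were tested on simulated counts. Scripts used Python 3.11.15, scipy 1.17.1 and matplotlib 3.10.9.

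The members and gene lists were chosen with earlier results of these data known. Some list members are not reported here by name. Named are the 6 members, the other neuronal calcium sensors, at most 4 genes with the lowest adjusted p of each further list and the nearest genes in pattern. *Nmt1*, *Nmt2* and *Cyp11b2* were named for their known role with their values in view. Alternatives were DESeq2 1.42.0 without and with its prior, other size factors, filters and cut-offs, glmTreat, 1 surrogate variable (sva 3.50.0), the chromaffin score as covariate, summing stem-sharing mice, and leaving out each mouse. The deposited size factors and leaving out both stem 1369-2 mice were added after the data were seen.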

Additional observations from a re-analysis of the deposited data

Results flagged for a closer look

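Of 24 groups of 6 values examined, 3 held a mouse far from the other 5, where chance gives about 1 in 20. *Hpcal1* in Ctrl was highest at 588 normalized counts in mouse 1367-1-2, a gap of 0.683 of the group's range. *Hpcal4* in Ctrl was highest at 335 in mouse 1367-5-2, a gap of 0.634 of the range. *Ncs1* in βCat-GOF was lowest at 75.2 in mouse 1369-4, a gap of 0.696 of the range.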

How the results depend on the processing

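Of 454 recomputed values, 438 kept their direction and side of the threshold, 9 no longer passed, 3 moved and 4 reversed. Part of the 438 could not change, so this count is no measure of stability. Leaving out a mouse cannot alter the per kb log2 differences of the other genotype. With 5 mice the smallest sign-flip p is 0.0625, so no neighbour pair of that genotype could pass. Leaving out the βCat-GOF mouse with the other label number was entered under 2 settings with the same values. Against a fold of 1.4 itself (glmTreat) the log2 fold changes of *Vsnl1* (1.00) and *Ncald* (1.45) no longer passed and 0 members were called. With 1 surrogate variable *Ncald* (1.02) no longer passed and 1 member was called. With stem-sharing mice summed, *Vsnl1* (0.86), *Vsnl1* against *Hpcal4* (0.59) and *Vsnl1* against the zG markers (0.40) no longer passed and 1 member was called. Leaving out each mouse in turn, *Vsnl1* was at 0.88 to 1.09, *Ncald* at 1.23 to 1.62, *Vsnl1* against *Hpcal4* at 0.48 to 0.79 and against the zG markers at 0.39 to 0.53, with 2 members called each time. With the longest transcript as length, the log2 difference of *Ncs1* over *Hpca* reversed to -0.20 in Ctrl and -0.072 in βCat-GOF, and that of *Hpcal1* over *Ncald* to -0.65 in βCat-GOF. With DESeq2's size factors the r of *Ncs1* with the chromaffin score in βCat-GOF reversed from 0.065 to -0.010. The cause of these changes was not tested beyond what each setting alters. No paired analysis was possible because the mouse labels carry no number common to both groups. With at most 162 raw counts, *Hpca* has the largest counting error of the members.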

Other observations

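Relations between members within a genotype were examined after the values were seen, and none of the 30 passed the Benjamini-Hochberg adjustment. *Vsnl1* and *Ncald* in βCat-GOF mice had r = -0.85 (exact permutation p = 0.0278, adjusted p = 0.417, n = 6) and rho = -0.60 (exact permutation p = 0.242). Without the 2 mice farthest from the median of *Vsnl1*, 1369-2ear and 1369-2 with their shared stem, r was -0.17, so the relation rests on those mice. In Ctrl mice r was 0.44 (exact permutation p = 0.392, n = 6) and rho was 0.31 (exact permutation p = 0.564). *Hpcal4* and *Ncald* moved together in Ctrl mice, with r = 0.90 (exact permutation p = 0.0139, adjusted p = 0.417, n = 6), rho = 0.89 (exact permutation p = 0.0333) and r = 0.93 without the 2 farthest mice. In βCat-GOF mice the same pair had r = -0.48 (exact permutation p = 0.321, n = 6) and rho = -0.71 (exact permutation p = 0.136), and the difference between the genotypes was not tested.

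*Ncs1* had the largest r with the zG score among βCat-GOF mice, 0.92 (exact permutation p = 0.0097, adjusted p = 0.144 over 24 relations, n = 6), with rho = 0.83 (exact permutation p = 0.0583) and r = 0.63 without the 2 farthest mice, while in Ctrl mice r was -0.42 (exact permutation p = 0.439, n = 6) and rho was -0.60 (exact permutation p = 0.242). *Ncald* followed the chromaffin score in Ctrl mice with r = 0.89 (exact permutation p = 0.0181, adjusted p = 0.144, n = 6), rho = 0.94 (exact permutation p = 0.0167) and r = 0.62 without the 2 farthest mice, and in βCat-GOF mice with r = -0.60 (exact permutation p = 0.207, n = 6) and rho = -0.66 (exact permutation p = 0.175).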
